A study of Mus musculus with 12 samples.

Results

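The 44 genes described here are a fixed list of cell cycle and DNA replication genes, taken from mouse liver RNA-seq by gene symbol. All 44 were found, each with 1 row among the 25164 genes listed. They cover the G1 cyclins and their kinases (5 genes), the control of entry into S phase (5), brakes on the cyclin kinases (4), origin licensing and the replication fork (10), deoxynucleotide supply (3), and G2 and mitosis (17). The 12 libraries came from livers of 3 groups of mice, with 4 libraries per group out of 10 mice assigned to each. The Control group was kept on a normal diet for 14 weeks, and the HFD group on high-fat food for the same 14 weeks. The HFD plus fenofibrate group had that food throughout, and from week 10 on also fenofibrate by gavage for 4 weeks. Fenofibrate lowers blood lipids through the nuclear receptor PPARA. The sources do not state strain, sex, age or time of day of collection.

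Cells enter the division cycle from G1 when D-type cyclins with Cdk4 or Cdk6, and then cyclin E with Cdk2, release the E2F transcription factors. E2F activity switches on the genes that load the MCM helicase onto replication origins and supply nucleotides, and a later wave, driven by Foxm1 and the MuvB complexes, switches on the genes of mitosis. Most hepatocytes of an adult liver rest outside the cycle, and they can re-enter it after loss of liver tissue. Rodent livers are also known to grow under drugs that activate PPARA.

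Levels are CPM, read counts relative to library sizes scaled by the TMM method, and group levels are means ± SD over 4 libraries. Sums of cell type markers are instead CPM of total counts without TMM scaling, so they are not on the scale of the log2 fold changes. Levels are compared between genes only per kilobase of exon. A difference is a log2 fold change ± SE, and a gene is said to have risen or fallen where edgeR's quasi-likelihood test gave a Benjamini-Hochberg adjusted p under 0.05 over all 13477 genes tested. Of the 44 genes, 35 had enough counts for the test. The 9 others were Cdc6, Ccnb1, Foxm1, Plk1, Aurkb, Bub1, Cdc20, Ube2c and Kif20a. Total counts were 15797016 to 18514481 per library, and since housing and sequencing batches are not stated, each p-value measures only the spread between these libraries, which may be partly technical.

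Markers of other tissues and cells differed between libraries. The 12 pancreatic acinar markers, all present, had a sum of 2042 CPM in library 1 of the fenofibrate group, and of 9.81 to 13.9 CPM in the 3 others of that group. Their sum was also higher in HFD (18.2 to 31.4 CPM) than in Control (6.24 to 9.92 CPM), without overlap. Only 2 of the 12 had enough counts for the test. With the diet their log2 fold changes had opposite signs, -1.64 and 1.6, and 0 passed. Striated muscle markers, 6 present of 7, reached 135 CPM in that library and 95.8 CPM in fenofibrate library 3, and no other library was above 1.09 CPM. Control library 3 had 15.7 CPM of 10 T and NK cell markers, against 3.84 to 6.47 CPM in the other Control libraries, and 46.4 CPM of 9 B and plasma cell markers, against 21.5 to 27.1. The sum of the B and plasma cell markers was 41.8 to 56.02 CPM in HFD and 25.3 to 34.99 CPM with fenofibrate. Control library 3 fell in the HFD range. Of the 8 of these markers tested, 1 rose and 1 fell with the diet (25%, beside 12.8% of all genes), with a median of 0.09. With fenofibrate against HFD 0 rose and 1 fell (12.5%, beside 13.5% of all genes), with a median of -0.52. Of 8 stellate cell markers, 1 was higher and 4 were lower with fenofibrate than with HFD (62.5%, beside 13.5% of all genes). Their median was -0.44, and limma-voom called 0 higher and 3 lower. Their sum was 217 to 292 CPM with fenofibrate against 270 to 335 CPM in HFD. The 10 hepatocyte markers summed to 136200 to 147500 CPM in Control, 125300 to 137200 CPM in HFD and 118700 to 137800 CPM with fenofibrate. Their median log2 fold change was -0.12 with the diet, and -0.19 for fenofibrate against HFD and against Control alike. The part of these differences in the results below was not tested, beyond the fits without single libraries. In whole liver, fewer cells of a type and less RNA per cell cannot be told apart.

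Levels differed widely within the list. Pcna, the sliding clamp of the replication fork, stood highest at a mean of 13.2 CPM per kb over all libraries, followed by the kinase Cdk4 (11), the inhibitors Cdkn1b (4.92) and Cdkn1a (4.29), the cyclin Ccnd3 (3.59) and the helicase subunit Mcm7 (3.52). The spread of Cdk4 and Pcna overlapped in each group, and Cdkn1b and Cdkn1a changed places between groups. At the other end stood the checkpoint kinase Bub1 (0.0226 CPM per kb) and the licensing factor Cdc6 (0.0285). Cdc6 had 0 to 10 reads and Bub1 0 to 4 reads in a library. The 17 genes of G2 and mitosis together gave 150 to 342 reads per library, out of total counts of at least 15797016. Their summed level was 11.4 ± 2.30 CPM in Control, 13.1 ± 1.85 in HFD and 11.7 ± 3.46 with fenofibrate, so these groups overlapped.

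**Figure D1:**
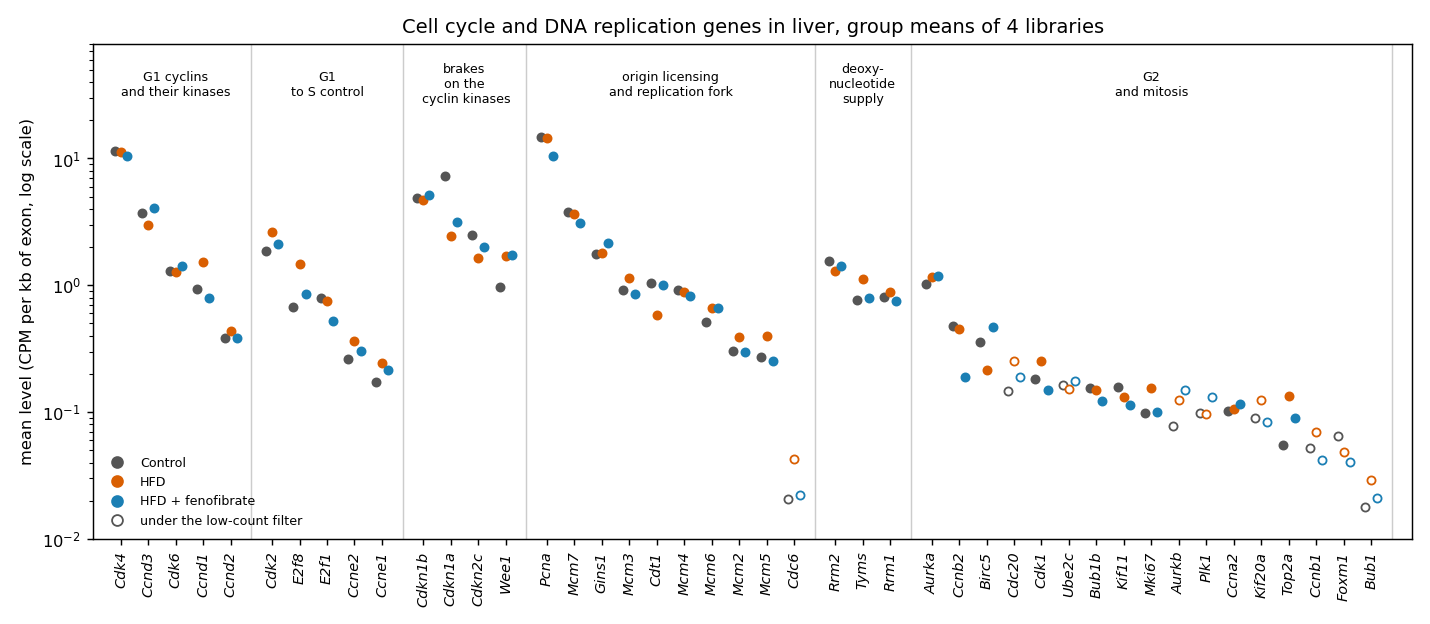
Mean level of each of the 44 genes in the 3 groups, in CPM per kilobase of exon on a log axis, with genes ordered by level within each role. Open points mark the 9 genes without enough counts for the test; Pcna and Cdk4 lie above 10 CPM per kb in every group, and Bub1, Cdc6, Foxm1 and Ccnb1 lie below 0.1.

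The promoters of some of these genes carry the sequence words by which the successive waves of the cycle are known. RefSeq promoter windows, from 250 bases before the start to 50 after it, matched 34 of the 44 genes in 38 windows (build GRCm38.p6). The genes without a window are Ccnd1, Ccnd2, Ccne2, Wee1, Mcm4, Gins1, Foxm1, Aurkb, Kif20a and Ccna2. On either strand, counting overlapping matches, an E2F word (TTTGGCGC, TTTCGCGC, TTTCCCGC or TTTGCCGC) was in 6 of 9 windows of the licensing and fork genes (66.7%) and in 1 of 13 of the G2 and mitosis genes (7.69%), against 2.26% of all 32851 windows. The CHR word TTTGAA, which MuvB complexes bind, was in 10 of 13 windows of the G2 and mitosis genes (76.9%) and 1 of 9 of the licensing and fork genes (11.1%), against 17.9% of all. The CCAAT word of NF-Y was in 12 of 13 (92.3%) and 7 of 9 (77.8%) of them, against 37.4% of all, and the E-box CACGTG was in 4 of the 38 windows (10.5%), against 7.15%. An E2F word was in 8 of the 38 windows (21.1%), among them 1 of 4 windows of the genes of entry into S phase. The G1 cyclins and their kinases (4 windows), the brakes (5) and deoxynucleotide supply (3) had 0 windows with an E2F word. A match is a description of these letters and not a bound site. The upstream 170 bases of 3 genes with E2F words are printed first, because Cdk2 moved with the diet while the helicase genes Mcm5 and Mcm6 carry more such words and did not pass the test. Capitals mark the E2F words in Mcm5 (chr8:75109339-75109508, plus strand), Mcm6 (chr1:128359706-128359875, minus strand) and Cdk2 (chr10:128705052-128705221, minus strand).
Mcm5: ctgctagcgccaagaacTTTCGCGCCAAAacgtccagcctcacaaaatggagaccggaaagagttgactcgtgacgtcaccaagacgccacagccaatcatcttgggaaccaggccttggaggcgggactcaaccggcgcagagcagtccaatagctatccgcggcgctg
Mcm6: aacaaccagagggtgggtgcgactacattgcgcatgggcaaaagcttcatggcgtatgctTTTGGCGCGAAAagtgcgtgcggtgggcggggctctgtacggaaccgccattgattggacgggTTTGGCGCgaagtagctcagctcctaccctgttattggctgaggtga
Cdk2: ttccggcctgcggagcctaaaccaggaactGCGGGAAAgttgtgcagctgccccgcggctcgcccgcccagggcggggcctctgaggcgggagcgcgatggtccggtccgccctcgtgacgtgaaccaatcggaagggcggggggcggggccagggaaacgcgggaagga
In the next 4 sequences the capitals mark TTTGAA and CCAAT on either strand. They belong to 4 of the mitotic genes with both words, and the changes of other tested ones are given with theirs below. The 4 are Cdk1 (chr10:69352913-69353082, minus strand), Ccnb2 (chr9:70421555-70421724, minus strand), Top2a (chr11:99024190-99024359, minus strand) and Mki67 (chr7:135716380-135716549, minus strand).
Cdk1: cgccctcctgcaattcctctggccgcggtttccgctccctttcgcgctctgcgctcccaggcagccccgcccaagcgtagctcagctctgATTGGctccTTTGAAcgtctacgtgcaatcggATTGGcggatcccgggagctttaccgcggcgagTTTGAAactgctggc
Ccnb2: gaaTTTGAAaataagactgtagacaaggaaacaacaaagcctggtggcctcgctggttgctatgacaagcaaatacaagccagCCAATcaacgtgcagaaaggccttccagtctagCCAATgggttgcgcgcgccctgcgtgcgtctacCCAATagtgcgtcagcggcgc
Top2a: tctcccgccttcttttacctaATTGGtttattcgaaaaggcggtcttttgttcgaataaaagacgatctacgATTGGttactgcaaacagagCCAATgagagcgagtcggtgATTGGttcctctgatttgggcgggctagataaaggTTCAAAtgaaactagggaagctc
Mki67: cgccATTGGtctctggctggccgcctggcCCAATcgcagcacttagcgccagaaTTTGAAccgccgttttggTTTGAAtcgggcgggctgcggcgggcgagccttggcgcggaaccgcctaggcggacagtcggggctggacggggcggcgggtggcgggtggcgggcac

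The first comparison, HFD against Control, shows what the diet changed. Of the 35 genes tested, 2 rose (Cdk2 and Tyms) and 3 fell (Cdkn1a, Cdkn2c and Cdt1), which is 14.3% of them. Across all 13477 genes 12.8% passed, 6.13% higher and 6.64% lower. The 35 genes thus passed about as often as any gene. Their median log2 fold change was 0.03, beside -0.02 over all genes. The 4 HFD libraries and the 4 Control libraries did not overlap for 7 genes, these 5 and Ccnd3 and Wee1, beside 17.6% of all genes.

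With fenofibrate added to the diet, compared with HFD, 2 of the 35 genes rose (Ccnd3 and Cdt1), 5.71% of them, beside 13.5% of all genes (6.89% higher and 6.59% lower). By edgeR 0 fell, although 7 were lower at an unadjusted p under 0.05, and DESeq2 called 3 lower (Ccnd1, Pcna and Tyms) and limma-voom 0. The median log2 fold change of the 35 genes was -0.22, beside 0.01 over all genes, and 23 of the 35 lay below zero. Groups did not overlap for 7 genes (Ccnd3, E2f1, Cdkn1b, Mcm7, Cdt1, Tyms and Ccnb2), beside 20.7% of all genes. In the fit that left out fenofibrate libraries 1 and 3, those with muscle transcripts, 0 of the 35 genes passed, and over all genes 55 rose and 69 fell in place of 928 and 888.

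Fenofibrate on the high-fat diet compared with Control asked what drug and diet did together. By edgeR 0 of the 35 genes passed in either direction, beside 9.17% of all genes (4.86% higher and 4.31% lower). At an unadjusted p under 0.05, 1 gene was higher (Wee1) and 5 were lower (E2f1, Cdkn1a, Mcm7, Pcna and Ccnb2). DESeq2 called 1 higher, Wee1, and 1 lower, Pcna, and limma-voom called 0 higher and 1 lower, Cdkn1a. Groups did not overlap for 3 genes (E2f1, Cdkn1a and Mcm7), beside 13.1% of all genes. The median of the 35 genes was -0.02, and of all genes -0.01. The 3 comparisons share groups, so their values for a gene are not independent of each other.

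Scaling by total counts alone moved the median of all genes by 0.05 in the first comparison, 0.17 in the second and 0.21 in the third. The split of all calls went with it, from 826 higher and 895 lower to 919 and 523 for the diet, from 928 and 888 to 2059 and 451 for fenofibrate against HFD, and from 655 and 581 to 2119 and 298 for fenofibrate against Control. Under that scaling the median of the 35 genes became 0.07, -0.06 and 0.20 in turn. The log2 fold change changed sign in 5, 3 and 9 of them, none a gene that had passed in that comparison.

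**Figure D2:**
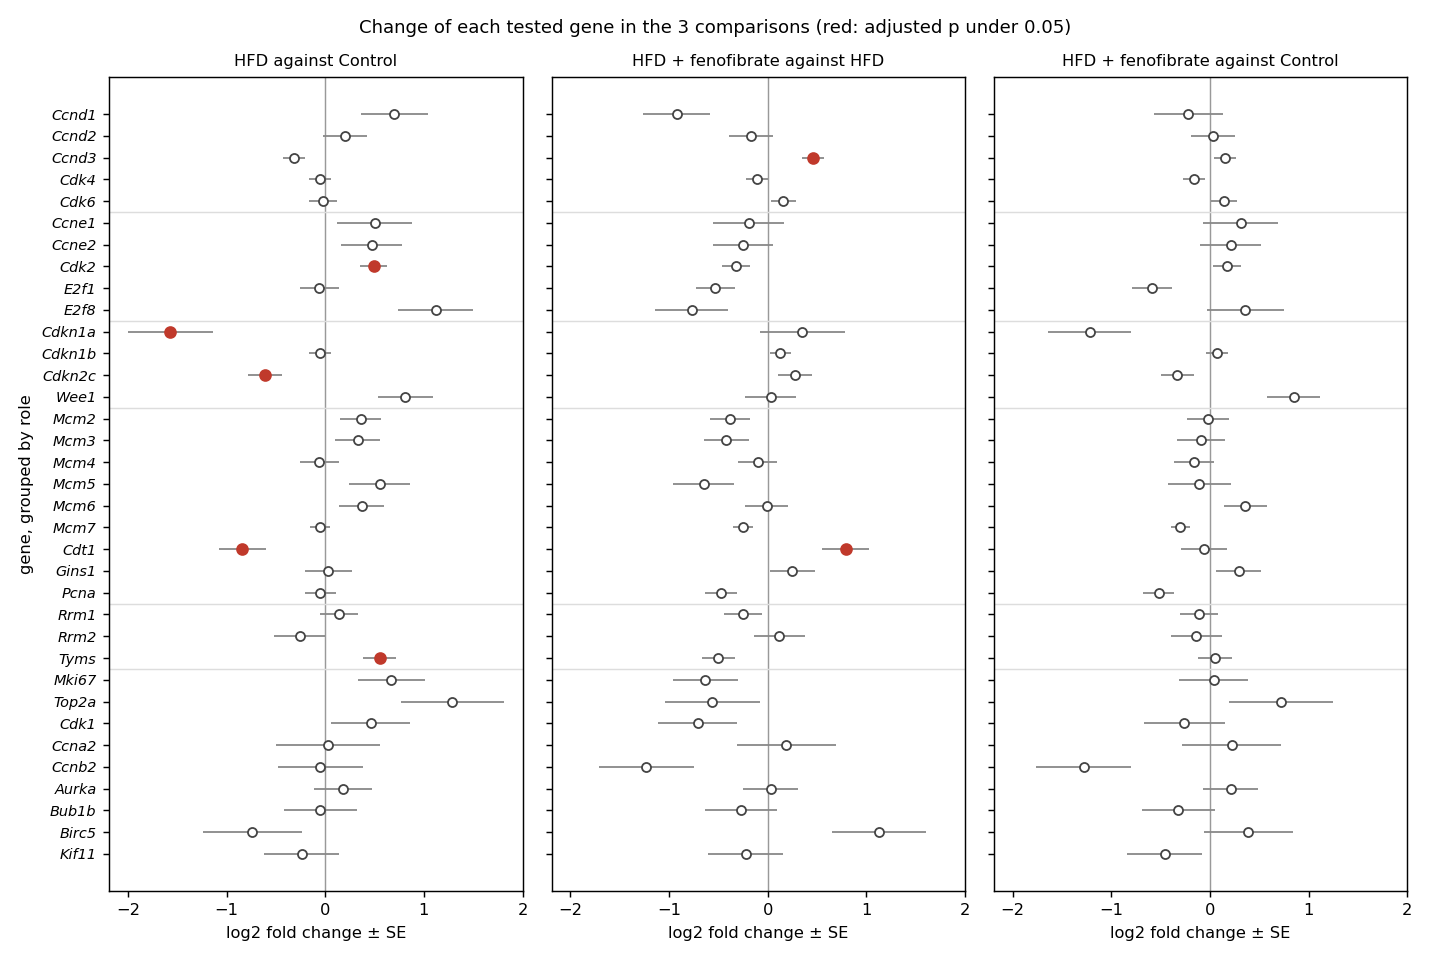
Log2 fold change ± SE of each of the 35 tested genes in the 3 comparisons, with genes grouped by role and red points past an adjusted p of 0.05. The diet comparison has 5 red points, fenofibrate against HFD has 2 and fenofibrate against Control has 0.

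Among the brakes on the cyclin kinases, 2 of 4 fell with the diet, beside 6.64% of all genes. Cdkn1a (ENSMUSG00000023067, chromosome 17, 29090979 to 29100722), which encodes the inhibitor p21 and is a target of p53, stood at 32.4, 19, 31.4 and 20.7 CPM in Control libraries 1 to 4. It was at 6.82, 12.6, 3.07 and 12.3 CPM in HFD libraries 1 to 4, and at 9.04, 17.1, 15.3 and 3.15 CPM in the fenofibrate libraries. Every Control library lay above every HFD and every fenofibrate library, while HFD and fenofibrate overlapped widely. The diet lowered it by a log2 fold change of -1.57 ± 0.43, a 2.97-fold difference (adjusted p = 0.026). It no longer passed without Control library 1 (adjusted p = 0.0709) or 3 (0.060), nor without HFD library 1 (0.0672) or 3 (0.0596), with log2 fold changes of -1.28 to -1.47. Fenofibrate against Control gave -1.22 ± 0.42 (adjusted p = 0.0822), and against HFD 0.35 ± 0.43 (adjusted p = 0.619). Limma-voom called the first of these (-1.46, adjusted p = 0.0442), as did edgeR without fenofibrate library 2 (-1.50, adjusted p = 0.0477).

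Cdkn2c (ENSMUSG00000028551, chromosome 4, 109660876 to 109667189), an INK4 inhibitor of Cdk4 and Cdk6, was steadier. It stood at 7.16, 6.49, 6.96 and 6.41 CPM in Control, at 5.26, 4.12, 3.25 and 5.08 CPM in HFD and at 4.30, 6.60, 5.84 and 4.83 CPM with fenofibrate. Control and HFD did not overlap, and the fenofibrate libraries spread across the gap between them. The diet changed it by -0.61 ± 0.17 (adjusted p = 0.0318). It missed the threshold without Control library 1 (adjusted p = 0.0776) or 3 (0.0627) and without HFD library 2 (0.085) or 3 (0.0935).

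The other 2 brakes did not pass. Wee1 (ENSMUSG00000031016, chromosome 7, 110122046 to 110143286), the kinase that holds Cdk1 inactive before mitosis, stood at 3.75, 4.09, 3.17 and 2.24 CPM in Control, at 4.52, 4.89, 7.79 and 6.07 CPM in HFD and at 4.89, 5.46, 3.89 and 9.61 CPM with fenofibrate. Control lay below every HFD library, and fenofibrate library 4 was the highest of all 12. The log2 fold change was 0.81 ± 0.28 with the diet (adjusted p = 0.0678) and 0.85 ± 0.27 for fenofibrate against Control (adjusted p = 0.0668). DESeq2 called both (adjusted p = 0.0376 and 0.0334), and edgeR called the first without fenofibrate library 4 (0.0271) and the second without fenofibrate library 3 (0.0428). Cdkn1b, the inhibitor p27, stood at 21.5, 17.1, 24.3 and 26.1 CPM in Control, at 22.1, 22.3, 21.9 and 19.7 CPM in HFD and at 22.29, 23.7, 23.5 and 24.2 CPM with fenofibrate. The fenofibrate libraries lay just above the HFD libraries, and Control spanned both. Its log2 fold changes were -0.05 ± 0.11, 0.13 ± 0.11 and 0.07 ± 0.11 (adjusted p = 0.819, 0.478 and 0.736).

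**Figure D3:**
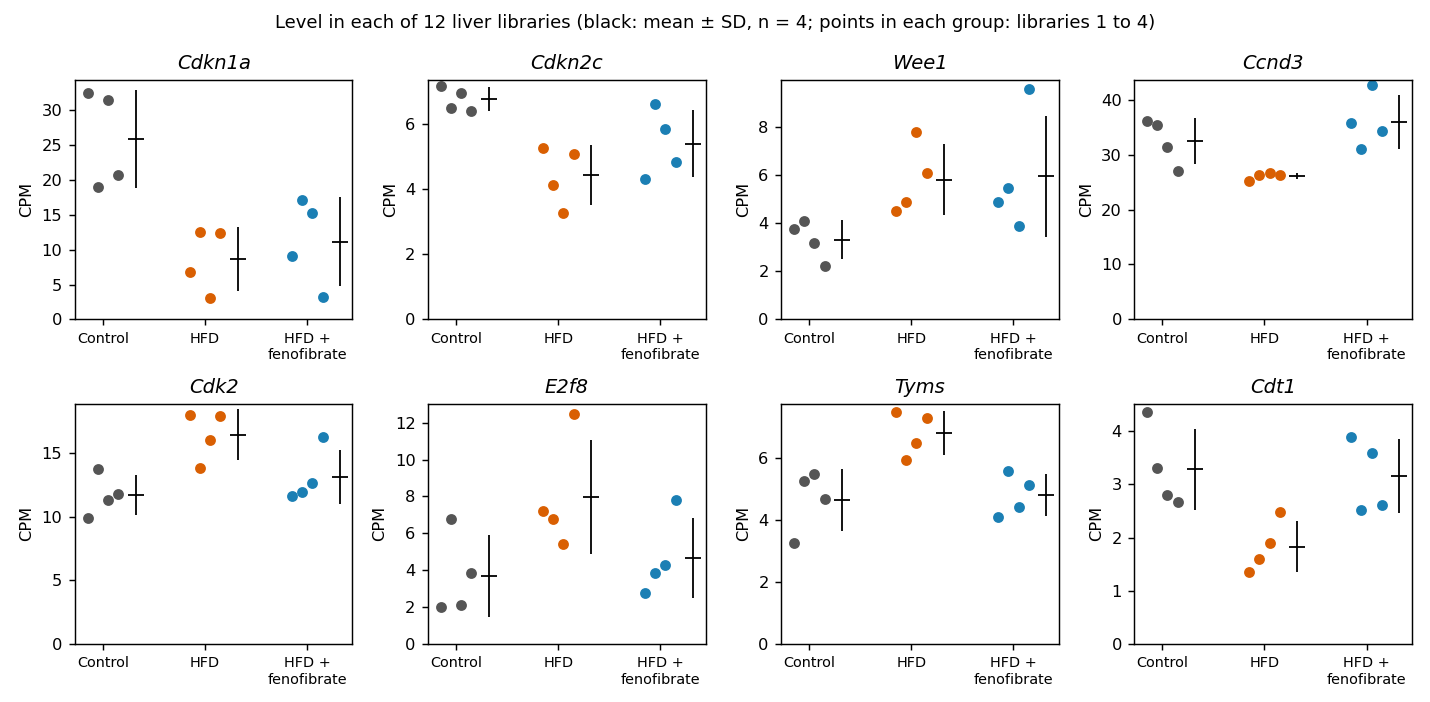
CPM in each of the 12 libraries for the 6 genes that passed in at least 1 comparison and for Wee1 and E2f8, with the mean ± SD of each group (n = 4) in black. Control lies above HFD for Cdkn1a, Cdkn2c and Cdt1 and below it for Wee1, Cdk2 and Tyms, while E2f8 overlaps.

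Of the 5 G1 cyclins and kinases 1 passed, in 1 comparison, fenofibrate against HFD (20%, beside 13.5% of all genes). Ccnd3 (ENSMUSG00000034165, chromosome 17, 47505051 to 47599691), the most abundant D-type cyclin here at 3.59 CPM per kb, stood at 36.2, 35.5, 31.4 and 26.9 CPM in Control. It was at 25.2, 26.3, 26.6 and 26.3 CPM in HFD and at 35.7, 31.01, 42.8 and 34.4 CPM with fenofibrate. HFD was the tightest and lowest group, below every library of the other 2 groups. Fenofibrate against HFD gave a rise of 0.46 ± 0.11 (adjusted p = 0.0167). That call was lost without fenofibrate library 3, the highest for this gene (0.37, adjusted p = 0.0647), and without fenofibrate libraries 1 and 3 together (0.33, adjusted p = 0.237). It held without fenofibrate library 1, which has the most muscle transcripts (0.48, adjusted p = 0.039). The part of muscle transcripts in this call was not tested. The diet gave -0.32 ± 0.11 (adjusted p = 0.0822), which passed without Control library 4 (-0.40, adjusted p = 0.0346). Exons of Bysl lie on the opposite strand over 361 of the 8775 exon bases of Ccnd3, and the strand setting of the counting is not given, so a few reads could be of either gene.

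Ccnd1, the D-type cyclin best known from regenerating liver, varied more than any other gene of its group. It stood at 2.91, 3.24, 7.90 and 3.55 CPM in Control, at 4.32, 7.01, 10.2 and 7.004 CPM in HFD and at 5.53, 1.92, 3.50 and 3.99 CPM with fenofibrate. Control library 3 stood apart from its group, and it is the library with the most T and NK cell markers. The diet gave 0.70 ± 0.34 (adjusted p = 0.201) with all libraries and 1.14 ± 0.31 (adjusted p = 0.0317) without Control library 3. In any gene, leaving out the library of a group nearest to the other group widens their difference. A pass gained in that way adds no support. Fenofibrate against HFD gave -0.92 ± 0.34 (adjusted p = 0.0803), which DESeq2 called (-0.94, adjusted p = 0.0435) and which passed in edgeR without Control library 3 (adjusted p = 0.0434). Exons of LTO1 overlap 1100 of its 4709 exon bases on the opposite strand, at a mean of 12.1 CPM for LTO1, so this gene's values are uncertain.

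Cdk4, a catalytic partner of these cyclins, stood at 35.2, 41.8, 33.8 and 39.3 CPM in Control, at 34.5, 31.7, 37.8 and 41.1 CPM in HFD and at 30.4, 39.95, 32.02 and 32.4 CPM with fenofibrate. All 3 groups overlapped. Its log2 fold changes were -0.05 ± 0.11, -0.11 ± 0.11 and -0.16 ± 0.11 (adjusted p from 0.413 to 0.826), and those of fenofibrate turned to 0.05 under scaling by total counts. Tspan31, at 108 CPM, overlaps 641 of its 3249 exon bases. Cdk6 and Ccnd2 did not pass either, with log2 fold changes from -0.17 to 0.20 over the 3 comparisons. All groups of both genes overlapped.

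Among the 5 genes that control entry into S phase, Cdk2 rose with the diet. Cdk2 (ENSMUSG00000025358, chromosome 10, 128697939 to 128705031), the kinase of cyclins E and A, stood at 9.90, 13.8, 11.3 and 11.8 CPM in Control. It was at 18.0, 13.8, 16.02 and 17.9 CPM in HFD and at 11.6, 11.9, 12.7 and 16.3 CPM with fenofibrate. The lowest HFD library, 2, lay only just above the highest Control library, also 2. The diet gave 0.49 ± 0.14, a 1.41-fold difference (adjusted p = 0.0287). Without Control library 1, 3 or 4 or HFD library 1 or 4 the adjusted p was 0.0716, 0.0629, 0.0532, 0.0734 and 0.0841 in turn. Fenofibrate against HFD gave -0.32 ± 0.14 (adjusted p = 0.117), which passed without fenofibrate library 4 (-0.44, adjusted p = 0.0437).

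E2f8, an atypical E2F that represses E2F targets and is known for its role in hepatocyte polyploidy, had the largest diet difference of the group. It stood at 2.01, 6.74, 2.11 and 3.86 CPM in Control, at 7.22, 6.77, 5.401 and 12.5 CPM in HFD and at 2.77, 3.84, 4.28 and 7.79 CPM with fenofibrate. Control library 2 and HFD library 4 were the highest of their groups, and the groups overlapped only through Control library 2 and HFD library 3. The diet gave 1.12 ± 0.38 (adjusted p = 0.0683). That difference passed in DESeq2 (1.13, adjusted p = 0.0269), in limma-voom (1.24, adjusted p = 0.0447), in edgeR without Control library 2 (1.58, adjusted p = 0.0135) and without fenofibrate library 4 (1.13, adjusted p = 0.0457). Exons of the noncoding Gm2788, at 18.3 CPM, overlap 610 of its 5443 exon bases on the opposite strand, so the level of E2f8 is uncertain.

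E2f1, the activator that drives S phase genes, was lowest with fenofibrate. It stood at 3.08, 2.27, 2.11 and 2.49 CPM in Control, at 2.16, 2.59, 2.15 and 2.67 CPM in HFD and at 1.29, 1.68, 1.75 and 1.92 CPM with fenofibrate. The fenofibrate libraries lay below every other library, but the log2 fold changes of -0.53 ± 0.20 against HFD and -0.59 ± 0.20 against Control did not pass (adjusted p = 0.0939 and 0.0873). Ccne1 and Ccne2, the E-type cyclins, gave 0.50 ± 0.38 and 0.47 ± 0.31 with the diet (adjusted p = 0.44 and 0.368). Ints8, at 14.3 CPM, overlaps 609 of the 3495 exon bases of Ccne2 on the opposite strand, so Ccne2 is uncertain.

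In origin licensing, Cdt1 was the gene that moved, while the helicase it loads did not pass in any comparison. Cdt1 (ENSMUSG00000006585, chromosome 8, 122568015 to 122573554) stood at 4.36, 3.31, 2.80 and 2.68 CPM in Control. It was at 1.35, 1.59, 1.90 and 2.48 CPM in HFD and at 3.90, 2.52, 3.60 and 2.61 CPM with fenofibrate. Every HFD library lay below every other library, and Control and fenofibrate overlapped. The diet gave -0.84 ± 0.24 (adjusted p = 0.0331) and fenofibrate against HFD gave 0.79 ± 0.24 (adjusted p = 0.0423). Both calls use the same 4 HFD libraries, and fenofibrate against Control gave -0.06 ± 0.23 (adjusted p = 0.915), or 0.16 under scaling by total counts.

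The Cdt1 calls rested on few libraries. The diet difference missed the threshold without Control library 1 (-0.66, adjusted p = 0.12) or 2 (0.058) and without HFD library 1 (0.0895), 2 (0.0908) or 3 (0.064), and under scaling by total counts (0.0722). The fenofibrate call was lost without HFD library 1 (0.117), 2 (0.0994) or 3 (0.0651), without fenofibrate library 1 (0.122) or 3 (0.12), without both of these (0.49, adjusted p = 0.426) and with no filter on low counts (0.0503). With fenofibrate libraries 1 and 3 left out, the remaining libraries 2 and 4 lay above all HFD libraries, at 2.52 and 2.61 CPM.

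Mcm2 to Mcm7 form the hexameric helicase that opens DNA at the fork. With the diet their log2 fold changes were 0.36 ± 0.21, 0.33 ± 0.23, -0.06 ± 0.20, 0.55 ± 0.31, 0.37 ± 0.23 and -0.05 ± 0.10 in that order, and adjusted p was 0.279 or more. Against HFD, fenofibrate gave values from -0.65 ± 0.31 (Mcm5) to -0.01 ± 0.22 (Mcm6), all below zero, although those of Mcm4 and Mcm6 turned to 0.07 and 0.16 under scaling by total counts. Mcm7, the most abundant subunit per kilobase, stood at 15.6, 19.8, 16.6 and 15.4 CPM in Control, at 15.45, 16.9, 15.2 and 17.5 CPM in HFD and at 13.6, 13.9, 12.7 and 14.5 CPM with fenofibrate. The fenofibrate libraries of Mcm7 lay below every other library, with -0.25 ± 0.10 against HFD and -0.30 ± 0.10 against Control (adjusted p = 0.118 and 0.0874). Exons of Ap4m1 and of the more abundant Cops6 (79.9 CPM) overlap those of Mcm7. Mcm5 stood at 1.80 CPM in Control library 3 and at 0.783 to 0.908 CPM in the other Control libraries.

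Pcna was also lowest with fenofibrate. It stood at 25.2, 43.5, 32.8 and 41.5 CPM in Control, at 34.9, 38.8, 28.1 and 36.5 CPM in HFD and at 23.8, 29.2, 19.7 and 27.1 CPM with fenofibrate. Fenofibrate overlapped both other groups, with HFD only through HFD library 3 and with Control only through Control library 1. It differed by -0.47 ± 0.16 from HFD and by -0.52 ± 0.16 from Control (adjusted p = 0.0668 and 0.0612). DESeq2 called both (adjusted p = 0.0449 and 0.0415). EdgeR called the first without Control library 1 (0.0299), HFD library 3 (0.046) or fenofibrate library 2 (0.0439), and the second without Control library 1 (-0.64, 0.0122) or fenofibrate library 2 (-0.60, 0.0431). Gins1, a subunit of the GINS complex of the fork, gave 0.03 ± 0.24, 0.25 ± 0.23 and 0.29 ± 0.23, and Cdc6 was too rare to test.

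In deoxynucleotide supply Tyms passed in 1 comparison, and the subunits of ribonucleotide reductase in none. Tyms (ENSMUSG00000025747, chromosome 5, 30058202 to 30073617), the thymidylate synthase, stood at 3.24, 5.25, 5.47 and 4.67 CPM in Control, at 7.49, 5.95, 6.51 and 7.31 CPM in HFD and at 4.10, 5.58, 4.43 and 5.13 CPM with fenofibrate. HFD lay above every library of both other groups. The diet gave 0.55 ± 0.17, a 1.47-fold difference (adjusted p = 0.0471), the call nearest to the threshold. It did not pass without Control library 1 (0.112), 2 (0.0503) or 4 (0.083), without each HFD library in turn (0.0575 to 0.117), without fenofibrate library 1 (0.0508), 3 (0.0542) or 4 (0.0516), without fenofibrate libraries 1 and 3 together (0.0568), in a fit of only the 8 libraries compared (0.0679) and with no filter on low counts (0.0758). Fenofibrate against HFD gave -0.50 ± 0.17 (adjusted p = 0.0599), which DESeq2 called (0.0434), as did edgeR without Control library 1 (0.0277) or fenofibrate library 2 (0.0421) and the fit of the 8 libraries (0.037).

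Ribonucleotide reductase makes deoxynucleotides from ribonucleotides. Its large subunit Rrm1 stood at 8.56, 10.2, 6.71 and 10.02 CPM in Control, at 8.30, 9.89, 10.6 and 10.3 CPM in HFD and at 9.04, 10.6, 8.27 and 5.03 CPM with fenofibrate. Fenofibrate library 4 was the lowest of all, and the groups overlapped, with log2 fold changes of 0.14 ± 0.19, -0.25 ± 0.19 and -0.11 ± 0.19 (adjusted p from 0.397 to 0.778). Its small subunit Rrm2 stood at 5.59, 3.76, 4.10 and 3.79 CPM in Control, at 2.09, 5.07, 2.88 and 4.34 CPM in HFD and at 3.46, 4.62, 4.87 and 2.76 CPM with fenofibrate. It gave -0.26 ± 0.26, 0.12 ± 0.26 and -0.14 ± 0.26 and overlapped in all 3 comparisons.

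The genes of G2 and mitosis were the rarest, and 0 of the 9 tested passed in any comparison by edgeR, DESeq2 or limma-voom. At an unadjusted p under 0.05, 1 was higher with the diet (Top2a), 1 was higher and 1 lower with fenofibrate against HFD (Birc5 and Ccnb2), and 1 was lower with fenofibrate against Control (Ccnb2). Aurka, the spindle pole kinase and the most abundant of them at 1.13 CPM per kb, stood at 4.14, 1.49, 2.86 and 1.87 CPM in Control, at 2.36, 3.30, 3.19 and 2.91 CPM in HFD and at 3.61, 3.42, 3.11 and 1.92 CPM with fenofibrate. Its groups overlapped, with log2 fold changes of 0.18 ± 0.29, 0.03 ± 0.28 and 0.21 ± 0.28 (adjusted p from 0.698 to 0.956).

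Mki67, the proliferation marker that coats mitotic chromosomes, stood at 0.783, 1.04, 1.43 and 0.684 CPM in Control, at 1.96, 1.47, 1.35 and 1.49 CPM in HFD and at 0.791, 1.32, 1.46 and 0.493 CPM with fenofibrate. HFD lay above the other groups except Control library 3 and fenofibrate library 3. The log2 fold changes were 0.67 ± 0.34 with the diet (adjusted p = 0.22) and -0.63 ± 0.33 with fenofibrate against HFD (adjusted p = 0.209). Top2a, the topoisomerase that untangles sister chromatids, stood at 0.336, 0.324, 1.06 and 0.249 CPM in Control, at 0.877, 1.94, 1.10 and 0.868 CPM in HFD and at 0.445, 0.420, 1.61 and 0.739 CPM with fenofibrate. Control library 3 was the highest of its group here too, and fenofibrate library 3 of its own. The diet gave 1.29 ± 0.52 (adjusted p = 0.123) with all libraries and 1.96 ± 0.55 (adjusted p = 0.0336) without Control library 3. Leaving out the highest Control library widens this difference in any case, so the pass adds no support.

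The 4 mitotic genes whose promoters are printed above stood as follows. Against HFD, fenofibrate gave -0.71 ± 0.40 for Cdk1, -1.23 ± 0.48 for Ccnb2, -0.56 ± 0.48 for Top2a and -0.63 ± 0.33 for Mki67, all below zero with adjusted p of 0.0958 or more. With the diet the same genes gave 0.46 ± 0.40, -0.05 ± 0.43, 1.29 ± 0.52 and 0.67 ± 0.34. The other tested mitotic genes with both words in their windows are Aurka, Bub1b and Kif11. For fenofibrate against HFD they gave 0.03 ± 0.28, -0.27 ± 0.37 and -0.22 ± 0.38. Ccnb2, a B-type cyclin, stood at 0.503, 0.908, 0.373 and 1.12 CPM in Control, at 0.405, 1.06, 0.430 and 0.868 CPM in HFD and at 0.247, 0.120, 0.389 and 0.394 CPM with fenofibrate. The fenofibrate libraries lay below every HFD library and overlapped Control. Birc5, the survivin gene of the chromosomal passenger complex, gave a positive value for fenofibrate against HFD, 1.13 ± 0.48 (adjusted p = 0.123). It spread widely, from 0.519 to 2.13 CPM in Control, from 0.203 to 1.43 in HFD and from 0.988 to 2.24 with fenofibrate.

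The remaining tested genes of this group, Ccna2, Bub1b and Kif11, gave log2 fold changes from -0.46 to 0.22 with SEs of 0.37 to 0.53. Ccna2 is uncertain, since Exosc9 (7.08 CPM) overlaps 510 of its 4083 exon bases on the opposite strand. At such SEs a difference of 1.5-fold was not detectable for these genes. The 8 untested genes of mitosis, Ccnb1, Foxm1, Plk1, Aurkb, Bub1, Cdc20, Ube2c and Kif20a, had 0 to 16 reads in a library. The highest single values were 16 reads for Aurkb and 16 for Cdc20, both in fenofibrate library 3, and 15 for Ube2c in the same library. Control library 3 had 14 reads for Ube2c, the most in its group. Exons of Cdc23 overlap 1271 of the 4338 exon bases of Kif20a, whose counts are uncertain.

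Beyond the 44 genes, 3 further lists cover the rest of the machinery. Of 42 other DNA replication genes 35 were tested, and with the diet 4 rose and 3 fell (7 of 35, beside 12.8% of all genes), with a median of 0.24 beside -0.02 over all genes. Mcm10, which activates the loaded helicase, stood at 31.4 to 62.5 CPM in Control and 76.2 to 112 CPM in HFD, a rise of 1.12 ± 0.20 (adjusted p = 0.00181). The clamp loader subunit Rfc3 (0.70 ± 0.15) and the origin recognition subunit Orc5 (0.50 ± 0.13) rose with the diet too. The fallers were the thymidine kinase Tk1 (-0.39 ± 0.11), the origin recognition subunit Orc2 (-0.61 ± 0.18) and the chromatin assembly subunit Chaf1b (-1.66 ± 0.39). Exons of Nif3l1 overlap 1150 of the 3857 exon bases of Orc2 on the opposite strand, so its values are uncertain. Against HFD, fenofibrate raised 0 of the 35 by edgeR (4 at an unadjusted p under 0.05, DESeq2 1, limma-voom 0) and lowered 2, among them the polymerase subunit Pola1 (-0.63 ± 0.20). Against Control it raised 1, Pold2 (0.58 ± 0.14), and lowered 1, Orc2 (-0.69 ± 0.18). In each of these comparisons 5.71% of the 35 passed, beside 13.5% of all genes against HFD and 9.17% against Control.

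Of 45 other mitosis genes 21 were tested, and 4.76% passed with the diet, 9.52% with fenofibrate against HFD and 4.76% against Control, beside 12.8%, 13.5% and 9.17% of all genes. Spc25, a subunit of the NDC80 kinetochore complex, rose with the diet, from 3.02 to 7.52 CPM in the Control libraries to 10.6 to 19.8 CPM in HFD, and stood at 4.23 to 7.26 CPM with fenofibrate. The log2 fold changes were 1.66 ± 0.27 for the diet (adjusted p = 0.001) and -1.40 ± 0.26 for fenofibrate against HFD (adjusted p = 0.00452). Its partner subunit Spc24 rose with fenofibrate against HFD (0.46 ± 0.15, adjusted p = 0.0483), although these groups overlapped and limma-voom called no gene of the list higher. The cytokinesis factor Ect2 fell with fenofibrate against Control (-1.47 ± 0.43, adjusted p = 0.0438). The other 18 tested genes of this list did not pass in any comparison.

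Of 29 other cell cycle regulators 24 were tested, and 8.33% passed with the diet, beside 12.8% of all genes. With fenofibrate 4.17% passed against HFD and 4.17% against Control, beside 13.5% and 9.17% of all genes. Rbl2, the pocket protein p130 that holds resting cells outside the cycle, fell with the diet from 24.5 to 30.5 CPM in the Control libraries to 17.0 to 20.3 CPM in HFD (-0.55 ± 0.10, adjusted p = 0.00207). It was higher with fenofibrate than in HFD, at 21.6 to 25.8 CPM (0.37 ± 0.10, adjusted p = 0.0278). Exons of Aktip overlap 693 of the 7558 exon bases of Rbl2 on the opposite strand. Tfdp2, a partner of the E2F factors, fell with the diet (-0.57 ± 0.12, adjusted p = 0.00633) and was lower with fenofibrate than in Control (-0.50 ± 0.12, adjusted p = 0.0163). The diet raised 0 of the 24 by edgeR, with 3 higher at an unadjusted p under 0.05 and 0 by DESeq2 or limma-voom.

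Cdkn1a is a textbook target of p53, and 19 of 20 genes of p53 and its targets were tested. With the diet 26.3% of them passed, beside 12.8% of all genes: 4 rose, the apoptosis gene Perp (0.58 ± 0.09), the cyclin Ccng1 (0.57 ± 0.12), the death receptor Fas (0.72 ± 0.15) and the stress gene Gadd45a (1.40 ± 0.30), and 1 fell, the kinase Plk3 (-0.92 ± 0.26). Over the 19 genes the median was -0.11, and 7 lay above zero. With fenofibrate against HFD, Trp53 itself (0.46 ± 0.13) and the apoptosis gene Bbc3 (1.03 ± 0.16) rose and Fas fell (-0.88 ± 0.14), 15.8% beside 13.5% of all genes. With fenofibrate against Control, Perp, Ccng1, Bbc3 and Gadd45a rose (0.41 to 1.12) and the kinase Plk2 fell (-0.40 ± 0.12), 26.3% beside 9.17% of all genes.

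**Figure D4:**
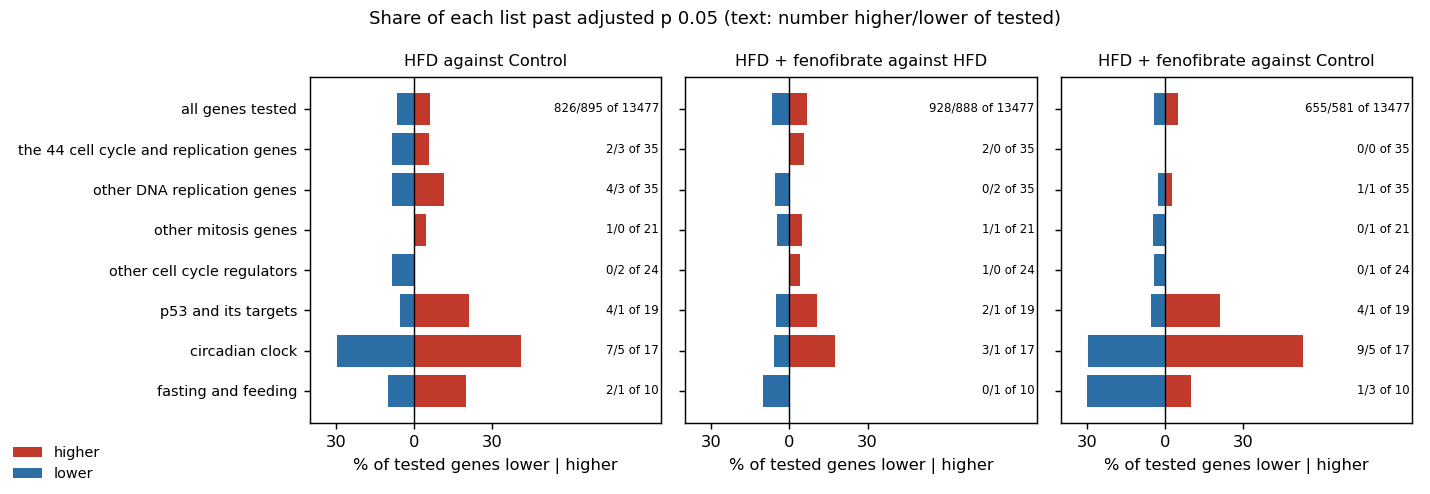
Share of tested genes past an adjusted p of 0.05 in the 44-gene list and in 6 further lists beside all genes, with bars to the right for higher, bars to the left for lower and the counts at the right edge of each panel. The 44-gene list has 2 higher and 3 lower with the diet, 2 and 0 with fenofibrate against HFD, and 0 and 0 with fenofibrate against Control.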

How the data were processed

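Liver RNA was sequenced in 12 libraries, 4 per group. The 2 deposited tables hold, per the file headers, the raw read count of each Ensembl gene, and the HFD libraries stand in both with 0 differing cells. Per the submitters' processing notes, the tools include HISAT2 2.0.5, HTSeq 0.6.0 and StringTie 1.3.2d, and the builds named are mm8 and mm9, although positions in the tables match GRCm38. No source states the strand setting. The deposited signal columns (the authors' normalized values), log2 fold change, fold change (a ratio) and p-value columns are the authors' own and were not used.

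The tables were joined by gene identifier (22657 shared genes), and genes listed in only 1 table were set to 0 in the other's libraries. Identifiers were looked up in GENCODE M21 (GRCm38), which gave exon lengths: 92.5% of 25113 had the same position. Counts were fitted with edgeR 4.0.16 in R 4.3.3 (filterByExpr, TMM, quasi-likelihood test, 1 coefficient per group, prior count 0.125, Benjamini-Hochberg over all genes). Tested genes held 99.87% of counts. Libraries of a group differed by a chi-square of 15.2 to 42.5 per gene, so no library was a copy. Same-numbered libraries were not taken as pairs, since their deviations correlated at -0.175 to 0.139 over 12 pairs. Scripts were checked on simulated libraries holding 200 genes of known change. The members, lists, motifs and tests were chosen with earlier results of these data known. Values in every library are given for members that passed and the 2 most abundant of each role (by CPM and by CPM per kilobase), and for E2f1, Ccnd1, Wee1 and Top2a after their values were seen. From each further list, up to 4 passing genes per direction are named, and some are not reported here. Marker lists (11) are sums of CPM of total counts, without TMM scaling. Alternatives were other scaling, no filter, DESeq2 1.42.0, limma-voom 3.58.1, other sample choices and the replicate number as a block.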

Additional observations from a re-analysis of the deposited data

Results flagged for a closer look

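In 138 groups of 4 libraries examined, 105 of them of the 44 genes, the highest or lowest library stood apart from its group beyond Dixon's 95% limit in 6. Chance flags about 1 in 20 groups. Control library 3 stood apart for 3 genes: Ccnd1 was 7.90 CPM there and 2.91 to 3.55 CPM in the other Control libraries, Mcm5 was 1.80 CPM against 0.783 to 0.908, and Top2a was 1.06 CPM against 0.249 to 0.336. This library also had the highest T and NK cell markers of all 12 (15.7 CPM), and its erythroid markers summed to 491 CPM against 244 to 300 CPM in the other Control libraries. The erythroid sum was 393 to 455 CPM in HFD, and it was highest in fenofibrate library 1, at 1198 CPM. The part of these cells in the 3 genes was not tested. Cdkn1b was 19.7 CPM in HFD library 4 and 21.9 to 22.3 CPM in the other HFD libraries.

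Of the marker sums, sinusoidal endothelial markers were 182 CPM in HFD library 1 against 349 to 370 CPM in the other HFD libraries. The pancreatic acinar sum was 2042 CPM in fenofibrate library 1, where fenofibrate libraries 2 to 4 gave 9.81 to 13.9 CPM.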

How the results depend on the processing

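For the 35 tested genes of the list, no log2 fold change past the threshold changed sign under the alternatives run. These were not run gene by gene for the further lists. Without a filter on low counts, fenofibrate against HFD had 1 gene of the list higher and 2 lower, and fenofibrate against Control 1 and 2. DESeq2 gave 4 higher for the diet, 3 lower for fenofibrate against HFD, and 1 and 1 for fenofibrate against Control. Limma-voom gave 1 lower for the last. The fit of only the 8 libraries compared gave 2 lower for fenofibrate against HFD. Scaling by total counts gave 1 higher for fenofibrate against Control, 523 of all genes lower for the diet, 2059 higher and 451 lower for fenofibrate against HFD, and 2119 and 298 against Control. Without fenofibrate libraries 1 and 3, 0 genes of the list were higher against HFD and 1 against Control, and of all genes 55 were higher and 69 lower against HFD, and 215 and 158 against Control. Fewer libraries enter that fit.

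With the replicate block, a fit that takes same-numbered libraries as paired, 1 gene of the list was lower with the diet, 1 was higher and 1 lower with fenofibrate against HFD, and 1 was lower against Control. Cdkn2c (adjusted p = 0.0609), Cdt1 (0.0598 with the diet, 0.068 with fenofibrate) and Tyms (0.0645) lost their calls, and E2f8 (0.0279) and Pcna (0.0252 and 0.0203) gained one. No source gives these numbers a meaning. Deviations of same-numbered libraries correlated at -0.175 to 0.139 over 12 pairs, which cannot exclude a weak pairing.

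Leaving out each library in turn gave 0 to 3 genes of the list higher and 0 to 4 lower for the diet, with 550 to 832 and 554 to 930 of all genes. Fenofibrate against HFD gave 0 to 2 and 0 to 2, with 282 to 1210 and 328 to 1206 of all genes. Against Control it gave 0 to 1 and 0 to 2, with 383 to 858 and 310 to 852 of all genes. Where the cause of such a move was not fewer libraries or genes, the cause was not tested. Depth limits the rarest genes: the 9 untested ones had 0 to 16 reads in a library.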

Other observations

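Genes of the circadian clock and of fasting and feeding were measured beside the cell cycle genes, because Wee1 is a known clock target and the time of collection is not given. Of 17 clock genes 12 passed with the diet (70.6%, beside 12.8% of all genes), 7 higher and 5 lower. Nr1d1 rose from 11.7 ± 3.72 CPM in Control to 78.3 ± 10.1 in HFD (2.74 ± 0.20), and Arntl fell from 31.9 ± 4.88 to 11.2 ± 5.16 CPM (-1.52 ± 0.24). With fenofibrate against Control 9 were higher and 5 lower (82.4%, beside 9.17% of all genes), with Nr1d1 at 103 ± 20.2 CPM and Arntl at 9.85 ± 2.40. With fenofibrate against HFD 3 were higher, Cry2, Per2 and Per3, and 1 was lower, Clock (23.5%, beside 13.5% of all genes). The part of the clock in the values of Wee1 was not tested.

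Of 10 genes of fasting and feeding, the diet raised 2, among them the lipogenic factor Srebf1 (0.86 ± 0.26), and lowered 1, the insulin receptor substrate Irs2 (51.5 ± 13.4 to 18.6 ± 7.14 CPM), 3 of 10 beside 12.8% of all genes. Fenofibrate against HFD lowered 1, Angptl4 (-1.11 ± 0.21), 10% beside 13.5% of all genes. Against Control, fenofibrate raised 1, Srebf1 (1.31 ± 0.27), and lowered 3, G6pc, Irs2 and Angptl4 (-1.42 to -1.05), 40% beside 9.17% of all genes.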
